A study of Mus musculus with 6 samples.

Results

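The genes described here are 10 regulators of the trophoblast lineage, the cells that form the placenta: Cdx2, Eomes, Gata3, Tfap2a, Tfap2c, Elf5, Hand1, Ascl2, Plet1 and Esrrb. They were chosen by symbol, and all 10 had a row among the 24393 genes listed in each library. RNA was measured in KH2 cells, a mouse embryonic stem cell line (strain label C57/BL/6) with a docking site for doxycycline-inducible genes, after differentiation towards definitive endoderm, the germ layer of the gut epithelium. The 3 CONTROL and the 3 HOXA13 libraries carry these words as their genotype label. By the study's methods the HOXA13 cells hold a FLAG-tagged human HOXA13 gene placed at that site; what the CONTROL cells carry there was not given in the sources used here. The protocol text is the same for both groups: plating on M15 cells, a mouse mesoderm-derived feeder line, 6 days of Activin-A, basic FGF, CHIR and Noggin without LIF, doxycycline at 1.25 µg/ml from day 4, a sort on day 6 for cells with both CXCR4 and E-cadherin on their surface, and a further day of culture with doxycycline. Whether CONTROL cells received doxycycline is not stated separately.

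Total counts ranged from 12279884 to 17331638 per library, and 3 counts, the floor used here, equalled 0.176 to 0.240 CPM (counts scaled to the TMM-normalised library size). Wherever 3 values are given for a group, they are those of its replicates 1, 2 and 3 in that order. The human identifier ENSG00000106031, listed with no symbol, had 0 counts in every CONTROL library and 2497, 7666 and 6572 in the HOXA13 libraries, and mouse Hoxa13 had at most 10 counts in any library. Markers of definitive endoderm were uneven in level: over the 6 libraries Sox17 lay between 0.97 and 4.84 CPM and Foxa2 between 1.76 and 5.04 CPM, and Cer1 had no count, while Gata4 lay between 13.1 and 31.9 CPM, Gata6 between 5.69 and 35.8 CPM and the epithelial Epcam between 18.7 and 413 CPM. The libraries of a group were not alike. CONTROL replicate 2 stood apart with the pluripotency factor Pou5f1 at 310 CPM, while CONTROL replicates 1 and 3 were at 0.85 and 5.77 CPM and the HOXA13 libraries at 75.9, 10.1 and 15.3 CPM. Over genes with at least 10 counts in a pair of libraries, CONTROL replicate 2 was nearer to the HOXA13 libraries (chi-square per degree of freedom 39.2, 66.1 and 66.6) than to CONTROL replicates 1 and 3 (127 and 99.8). The fold change of each of the 10 genes other than Elf5 is therefore also given without CONTROL replicate 2. That library was singled out after its likeness to the HOXA13 libraries was seen, and leaving it out sets the groups further apart. Over all tested genes the edgeR calls then rose from 42 to 2006, so those fits add no separate support for a difference.

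Trophoblast is set apart from the embryo proper by a small circuit of transcription factors. Hippo signalling controls whether YAP1 binds the DNA-binding protein TEAD4, which together with GATA3 turns on Cdx2, and CDX2 with EOMES, ELF5 and TFAP2C then keeps trophoblast stem cells dividing. HAND1 and ASCL2 direct the later giant cell and spongiotrophoblast branches. Most of these genes also work elsewhere: CDX2 specifies hindgut and is a marker of intestinal metaplasia, EOMES acts in the primitive streak and early endoderm, HAND1 in lateral mesoderm, and ESRRB in naive pluripotent cells.

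HOXA13 replicate 1 was the highest library for Cdx2 and the lowest for Eomes, Plet1 followed Cdx2, and Ascl2 had its groups apart. The promoter sequences of Cdx2, Eomes, Plet1 and Ascl2 are therefore shown. Each is the 250 bases before the RefSeq transcription start on GRCm38.p6, in the direction of transcription, and 8 of the 10 genes had such an entry; Hand1 and Tfap2c did not. Capitals mark TTTAT, a core bound by posterior Hox and Cdx proteins, read on both strands, so that it also appears as ATAAA.
Cdx2, chr5:147307250-147307499, minus strand: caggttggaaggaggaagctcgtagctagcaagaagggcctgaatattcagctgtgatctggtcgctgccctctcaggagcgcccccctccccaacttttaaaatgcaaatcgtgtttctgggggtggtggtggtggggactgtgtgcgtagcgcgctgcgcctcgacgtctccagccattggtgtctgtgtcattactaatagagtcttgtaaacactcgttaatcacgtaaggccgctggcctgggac
Eomes, chr9:118477939-118478188, plus strand: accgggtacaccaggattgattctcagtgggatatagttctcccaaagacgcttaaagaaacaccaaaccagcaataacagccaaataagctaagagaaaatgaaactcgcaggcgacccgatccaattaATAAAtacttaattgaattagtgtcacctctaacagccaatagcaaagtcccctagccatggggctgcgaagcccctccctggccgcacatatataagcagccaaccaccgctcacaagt
Plet1, chr9:50494275-50494524, plus strand: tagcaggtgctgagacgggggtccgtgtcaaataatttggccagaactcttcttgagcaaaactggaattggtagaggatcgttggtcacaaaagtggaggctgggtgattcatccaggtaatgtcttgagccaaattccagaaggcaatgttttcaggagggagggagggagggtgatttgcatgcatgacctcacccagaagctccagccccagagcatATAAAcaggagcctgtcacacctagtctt
Ascl2, chr7:142969265-142969514, minus strand: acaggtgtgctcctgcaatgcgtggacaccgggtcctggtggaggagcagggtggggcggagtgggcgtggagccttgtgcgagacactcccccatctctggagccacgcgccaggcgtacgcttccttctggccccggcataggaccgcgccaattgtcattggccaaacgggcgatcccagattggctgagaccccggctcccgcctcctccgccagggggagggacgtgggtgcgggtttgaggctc

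The Cdx2 and Ascl2 windows hold no TTTAT. The Eomes window holds it once, with its first base 120 bases before the start, and the Plet1 window once, 29 bases before the start, where it lies within a TATA box (TATAAA). Of 32851 promoter windows of this length, 37.3% hold TTTAT on one of the strands and 12.4% hold TATAAA. The letters GCCNNNGGC, the palindrome bound by AP-2 proteins such as TFAP2C, occur once in the Cdx2 window, 16 bases before the start, and 3 times in that of Gata3, against 13.7% of all windows. An E-box, CANNTG, as bound by HAND1 and ASCL2, is in 66.2% of all windows, among them those of Cdx2, Plet1 and Ascl2 and not that of Eomes. The TEAD site CATTCC, found in 12.6% of windows, is in none of these 4. The matches describe letters only.

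Across the 10 genes, the quasi-likelihood test of edgeR, adjusted by Benjamini-Hochberg over 13600 tested genes, called none at an adjusted p under 0.05, where 0.309% of all tested genes were called. All 10 passed the filter on low counts. At an unadjusted p under 0.05 there were 2, Eomes and Hand1, against 14.1% of all genes. DESeq2, the tool of the study, called 1, Eomes, against 5.07% of all genes, and limma voom with sample quality weights called 3, Eomes, Tfap2c and Hand1, against 15.4%. In 4 of the 10 the groups did not overlap in CPM, against 20.0% of all tested genes. Tfap2c and Ascl2 were the 2 with every HOXA13 library higher, against 11.5%, and Eomes and Hand1 the 2 with every HOXA13 library lower, against 8.52%. The median log2 fold change of the 10 genes was 0.58, against −0.01 for all tested genes, with 6 above 0 and 4 below. Because RNA came from bulk cultures, fewer cells of a type and less RNA per cell cannot be told apart.

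**Figure D1:**
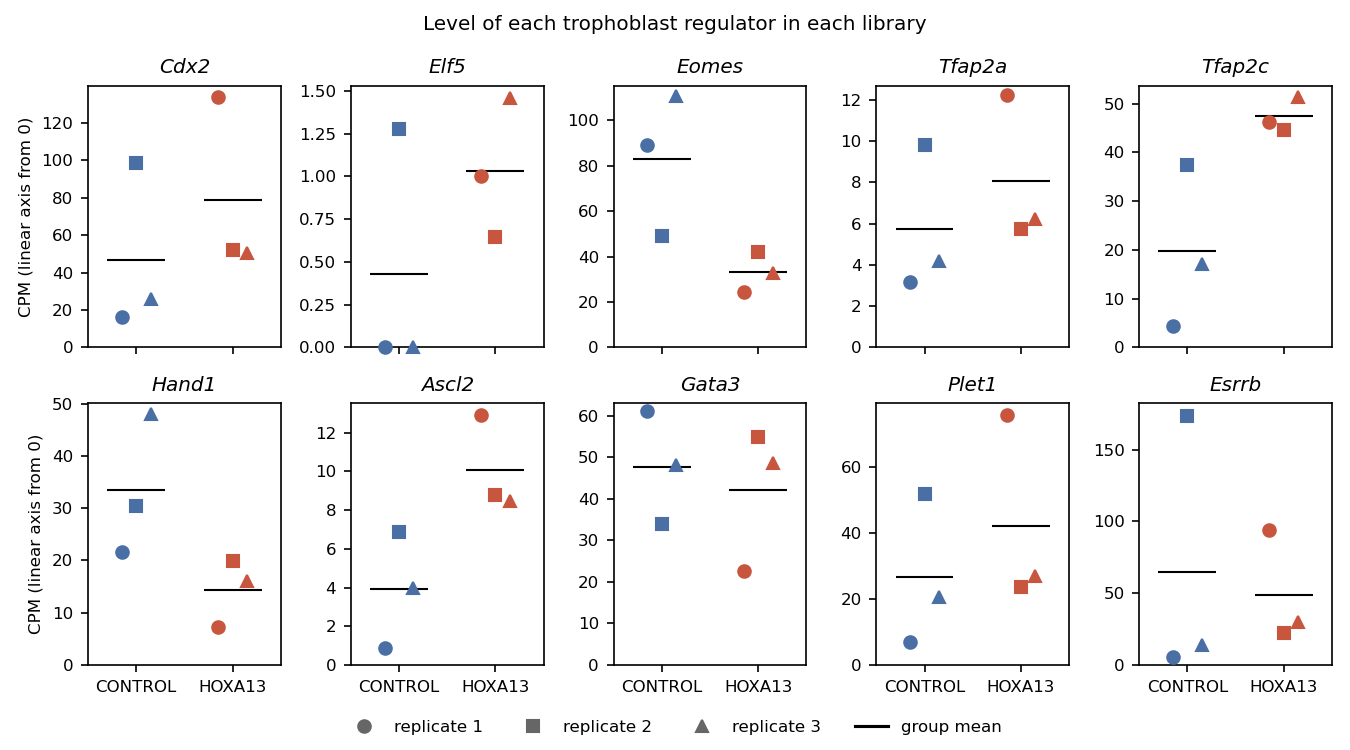
Level of each of the 10 genes, in CPM on linear axes that start at 0 and differ between panels, in 3 CONTROL and 3 HOXA13 libraries (marker shape: replicate number; bar: group mean). Tfap2c and Ascl2 are higher and Eomes and Hand1 lower in every HOXA13 library, while Cdx2, Plet1, Tfap2a and Esrrb are highest in CONTROL replicate 2 and HOXA13 replicate 1.

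Eomes, a T-box factor (mm9 chr9:118387330-118395250, plus strand), was the gene of the 10 with the smallest p. It measured 89.0, 49.0 and 111 CPM across CONTROL against 24.4, 41.9 and 33.0 CPM across HOXA13. Every HOXA13 library lay below every CONTROL library, and CONTROL replicate 2 was the nearest to them. The means were 82.9 ± 31.3 and 33.1 ± 8.79 CPM (SD, n = 3 each), a log2 fold change of −1.32 (SE 0.33; 95% interval −2.09 to −0.56), or 2.50-fold more in CONTROL. By edgeR the unadjusted p was 0.0040, rank 391 of 13600, and the adjusted p was 0.141; DESeq2 gave an adjusted p of 0.0057. Without CONTROL replicate 2 the log2 fold change was −1.61 (SE 0.24) with an edgeR adjusted p of 0.0043.

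Cdx2, the caudal-type homeobox factor (mm9 chr5:148112381-148118846, minus strand), differed more within the groups than between them. Its level was 16.2, 98.7 and 26.0 CPM across CONTROL against 134, 52.1 and 50.2 CPM across HOXA13. CONTROL replicate 2 exceeded HOXA13 replicates 2 and 3, so the groups overlapped, and the highest library was 8.27-fold above the lowest. The means of 47.0 ± 45.1 and 78.7 ± 47.7 CPM gave a log2 fold change of 0.75 (SE 0.68; 95% interval −0.81 to 2.30) with an edgeR adjusted p of 0.697. Without CONTROL replicate 2 it was 1.88 (SE 0.45) with an edgeR adjusted p of 0.0266, and without HOXA13 replicate 1 it was 0.11 with an edgeR adjusted p of 0.974. Leaving out CONTROL replicate 1 gave 0.30.

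Cdx2 and Eomes changed order between libraries. On a per-length scale (CPM per kilobase of exon), the ratio of Cdx2 to Eomes was 0.334, 3.70 and 0.432 in the CONTROL replicates and 10.1, 2.28 and 2.80 in the HOXA13 replicates. Cdx2 exceeded Eomes in all 3 HOXA13 libraries and in CONTROL replicate 2, and Eomes exceeded Cdx2 in CONTROL replicates 1 and 3.

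**Figure D2:**
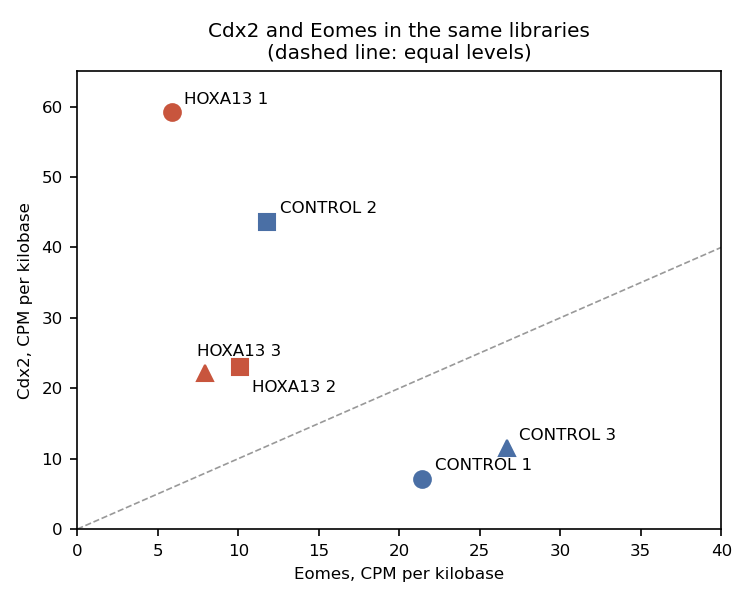
Cdx2 (vertical) against Eomes (horizontal), both in CPM per kilobase of exon on linear axes, 1 point per library, with a dashed line of equal levels. CONTROL replicates 1 and 3 lie below the line at ratios of 0.334 and 0.432, and the other 4 libraries lie above it, up to 10.1 in HOXA13 replicate 1.

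Gata3, the zinc finger factor that acts beside TEAD4 upstream of Cdx2 (mm9 chr2:9778705-9811661, minus strand), was close in the groups. It stood at 61.0, 34.0 and 48.0 CPM across CONTROL against 22.7, 54.8 and 48.6 CPM across HOXA13. Here CONTROL replicate 2 and HOXA13 replicate 1, the libraries with most Cdx2, were the lowest of their groups. The means of 47.7 ± 13.5 and 42.0 ± 17.0 CPM differed by a log2 fold change of −0.18 (SE 0.36; 95% interval −1.01 to 0.64; edgeR adjusted p 0.872), or −0.39 (SE 0.34) without CONTROL replicate 2. Without CONTROL replicate 1 it was 0.02 and without HOXA13 replicate 1 it was 0.10. The annotated Gata3 span overlaps Gm13256 and 4930412O13Rik on the opposite strand and 9230102O04Rik on its own, and how the authors' counting divided such reads is not given in the sources used here.

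The AP-2 factors Tfap2c and Tfap2a, which share a DNA site and act in trophoblast and in surface ectoderm, differed in how even they were among HOXA13 libraries. Tfap2c (mm9 chr2:172375093-172384122, plus strand) measured 4.47, 37.4 and 17.2 CPM across CONTROL against 46.3, 44.6 and 51.3 CPM across HOXA13. All HOXA13 libraries were above all CONTROL libraries, and their log2 levels spanned 0.20 against 3.03 in CONTROL, the narrowest HOXA13 span of the 10 genes. The means were 19.7 ± 16.6 and 47.4 ± 3.49 CPM, a log2 fold change of 1.27 (SE 0.61; 95% interval −0.14 to 2.67; edgeR adjusted p 0.409), or 2.41-fold more in HOXA13. Without CONTROL replicate 2 the log2 fold change was 2.11 (SE 0.48) with an edgeR adjusted p of 0.0204, and without CONTROL replicate 1 it was 0.77 (edgeR adjusted p 0.571). Tfap2a (mm9 chr13:40811044-40829192, minus strand, overlapped by the antisense Gm16989) was lower, at 3.19, 9.83 and 4.20 CPM across CONTROL against 12.2, 5.74 and 6.24 CPM across HOXA13. These groups overlapped at CONTROL replicate 2, and the log2 fold change was 0.49 (SE 0.56; 95% interval −0.80 to 1.78; edgeR adjusted p 0.769), or 1.10 (SE 0.52; edgeR adjusted p 0.197) without CONTROL replicate 2 and 0.05 without HOXA13 replicate 1.

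Of the factors of later trophoblast, Hand1 and Ascl2 lay in opposite directions. Hand1, a basic helix-loop-helix factor of giant cells and lateral mesoderm (mm9 chr11:57642207-57646320, minus strand), was at 21.7, 30.5 and 48.0 CPM across CONTROL against 7.30, 20.0 and 16.0 CPM across HOXA13. The groups did not overlap, though CONTROL replicate 1 and HOXA13 replicate 2 were close. Means of 33.4 ± 13.4 and 14.4 ± 6.48 CPM gave a log2 fold change of −1.21 (SE 0.43; 95% interval −2.20 to −0.22), with an edgeR p of 0.0229, an edgeR adjusted p of 0.267 and a DESeq2 adjusted p of 0.0927; without CONTROL replicate 2 it was −1.28 (SE 0.45; edgeR adjusted p 0.0935). Ascl2, a helix-loop-helix factor of spongiotrophoblast progenitors and also of intestinal stem cells (mm9 chr7:150152727-150155169, minus strand), had 0.85, 6.88 and 3.97 CPM across CONTROL against 12.9, 8.79 and 8.49 CPM across HOXA13. Every HOXA13 library was above every CONTROL library. The low CONTROL replicate 1 rested on 12 counts, and the highest library was 15.2-fold above it. Means of 3.90 ± 3.01 and 10.1 ± 2.47 CPM gave a log2 fold change of 1.37 (SE 0.68; 95% interval −0.20 to 2.93; edgeR adjusted p 0.425), and without CONTROL replicate 2 it was 2.04 (SE 0.65; edgeR adjusted p 0.0707) and without CONTROL replicate 1 it was 0.86.

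Elf5, an ETS factor whose promoter is methylated in embryonic stem cells and open in trophoblast (mm9 chr2:103251845-103291146, plus strand), was near the detection limit. It had 0, 16 and 0 counts across CONTROL against 13, 11 and 24 counts across HOXA13. A count of 0 allows up to 0.213 CPM in CONTROL replicate 1 and 0.225 CPM in CONTROL replicate 3, against 0.64 to 1.46 CPM in the HOXA13 libraries and 1.28 CPM in CONTROL replicate 2, and these limits cover counting error only. The groups overlapped, and the log2 fold change was 1.28 (SE 1.62; 95% interval −2.46 to 5.01; edgeR adjusted p 0.794). It was 0.67 without either CONTROL replicate 1 or CONTROL replicate 3, and without CONTROL replicate 2 no CONTROL count is left and no fold is given.

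Plet1, a surface glycoprotein gene of trophectoderm and placenta (mm9 chr9:50302630-50313744, plus strand), repeated the order of Cdx2 at its ends. It was at 6.88, 52.1 and 20.8 CPM across CONTROL against 76.0, 23.8 and 27.2 CPM across HOXA13, with HOXA13 replicate 1 highest and CONTROL replicate 1 lowest. The log2 fold change was 0.67 (SE 0.71; 95% interval −0.96 to 2.30; edgeR adjusted p 0.746). It was −0.074 without HOXA13 replicate 1 and 1.59 (SE 0.60; edgeR adjusted p 0.114) without CONTROL replicate 2.

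Esrrb, an orphan nuclear receptor that sustains both naive pluripotent cells and trophoblast stem cells (mm9 chr12:87702067-87862578, plus strand), varied most. Its levels were 5.60, 174 and 14.0 CPM across CONTROL against 94.1, 22.2 and 29.6 CPM across HOXA13. CONTROL replicate 2 was 31.0-fold above CONTROL replicate 1 and above every HOXA13 library. The log2 fold change was −0.41 (SE 1.12; 95% interval −2.99 to 2.18; edgeR adjusted p 0.918), and DESeq2 gave no adjusted p. Without CONTROL replicate 2 the sign turned, to 2.29 (SE 0.66; edgeR adjusted p 0.0494), and without HOXA13 replicate 1 it was −1.33 (edgeR adjusted p 0.801). Leaving out CONTROL replicate 1 gave −0.98.

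**Figure D3:**
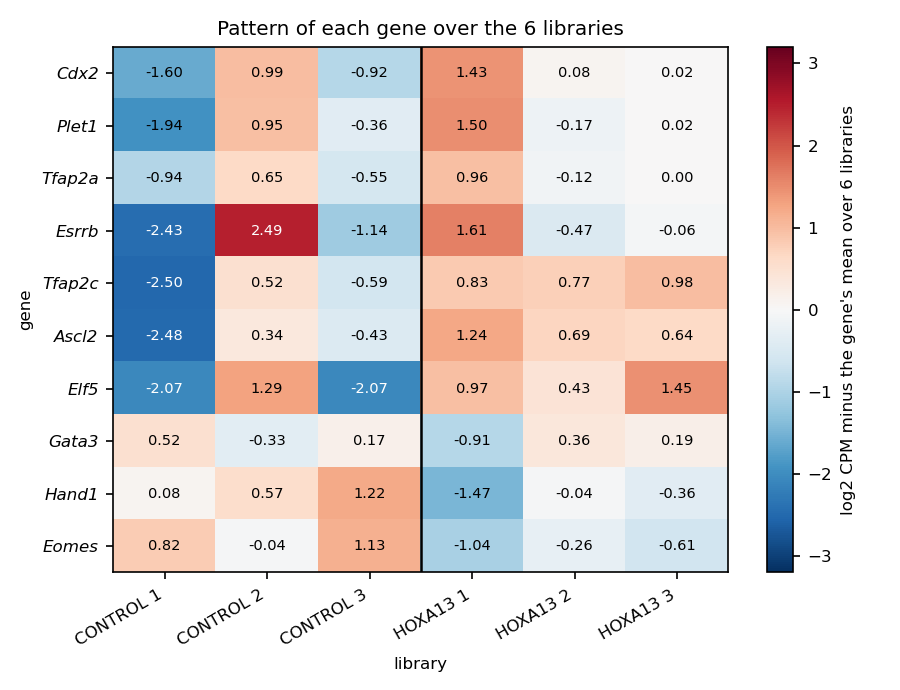
Log2 CPM of each gene minus its mean over the 6 libraries (red: above, blue: below; the value is printed in each cell; vertical line between the groups). CONTROL replicate 1 is the single lowest library for 6 of the 10 genes, and Esrrb ranges from −2.43 there to 2.49 in CONTROL replicate 2.

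Among libraries, CONTROL replicate 1 was the single lowest for 6 of the 10 genes and HOXA13 replicate 1 the single lowest for 3, Eomes, Hand1 and Gata3; Elf5 was lowest at 0 in both CONTROL replicates 1 and 3. HOXA13 replicate 1 was the highest for 4, Cdx2, Tfap2a, Ascl2 and Plet1. Markers of other cell types moved with these places. Of 25 naive pluripotency markers with counts, 20 were highest in CONTROL replicate 2 and 16 were lowest in CONTROL replicate 1. The summed level of these markers ranged from 857 to 3248 CPM in CONTROL and from 1607 to 2272 CPM across HOXA13. Trim28 was the largest single part of that sum in every library, at 496, 944 and 526 CPM across CONTROL against 800, 584 and 618 CPM across HOXA13. Prdm14 and Tcl1 were at 0 in most libraries. Of 29 fibroblast and feeder markers, 20 were highest in CONTROL replicate 1 and 15 lowest in HOXA13 replicate 1. Their summed level ranged from 2923 to 12769 CPM in CONTROL and from 2418 to 6195 CPM across HOXA13, with Lum at 0 in all but CONTROL replicate 1. Fn1 made up most of the HOXA13 sums, at 1997, 4631 and 4976 CPM, against 3374, 2033 and 3728 CPM across CONTROL. The fibroblast and feeder sum was lowest in HOXA13 replicate 1 and CONTROL replicate 2, where Cdx2 was highest, and the part of these markers in the levels of the 10 genes was not tested.

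Leaving out CONTROL replicate 2 changed more calls than any other single library. The edgeR test then called 4 of the 10 genes, Cdx2, Eomes, Tfap2c and Esrrb, against 14.2% of all genes tested. Groups no longer overlapped in 9 of the 10, all but Gata3, against 49.2% of all tested genes. With HOXA13 replicate 1 left out as well, a choice made after seeing the data, the same 4 were called, against 18.0% of all genes; the log2 fold changes were then 1.27 for Cdx2, −1.43 for Eomes, 2.14 for Tfap2c and 1.39 for Esrrb.

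**Figure D4:**
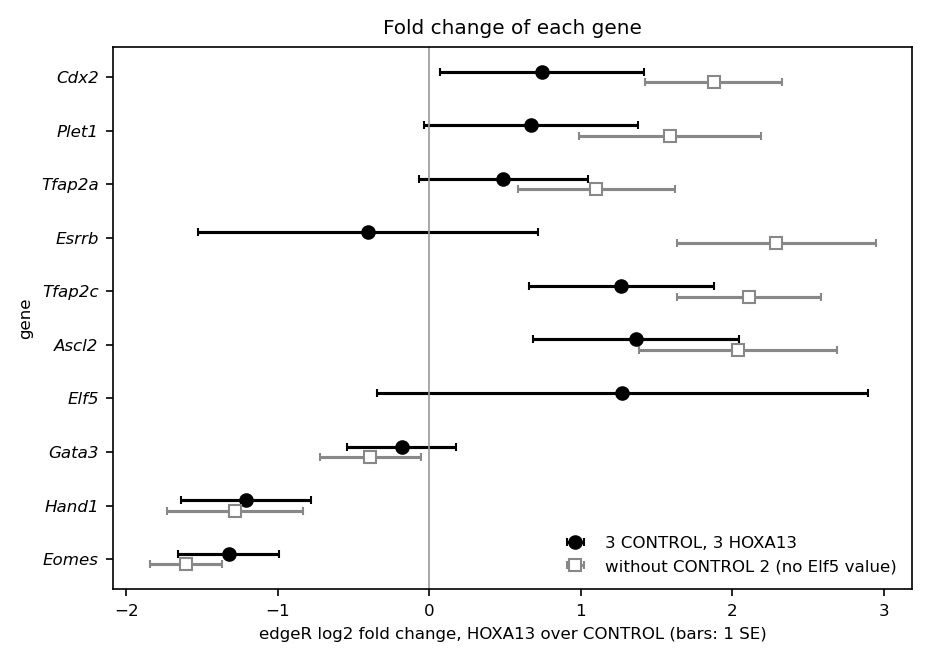
Log2 fold change of HOXA13 over CONTROL by edgeR with 1 SE, from all 6 libraries (filled circles) and without CONTROL replicate 2 (open squares; Elf5 has none, since no CONTROL count is left). Esrrb moves from −0.41 to 2.29 and Cdx2 from 0.75 to 1.88, while Eomes and Hand1 stay below 0 in both.

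Compared per kilobase of exon, Cdx2 had the highest mean level in both groups, 20.8 ± 19.9 in CONTROL and 34.8 ± 21.1 CPM per kilobase in HOXA13. The CONTROL mean of Cdx2 rested on CONTROL replicate 2: its 3 libraries were at 7.15, 43.6 and 11.5 against 21.4, 11.8 and 26.7 CPM per kilobase for Eomes, whose median there was higher (21.4 against 11.5). By the mean, Eomes was second in CONTROL at 20.0 ± 7.54 and sixth in HOXA13 at 7.97 ± 2.12 CPM per kilobase. In CONTROL the order went on with Hand1, Plet1, Gata3, Esrrb, Tfap2c, Ascl2, Tfap2a and Elf5, and only the last step, from Tfap2a at 1.77 ± 1.10 to Elf5 at 0.073 ± 0.126 CPM per kilobase, had library values that did not overlap. In HOXA13 Plet1, Tfap2c, Gata3 and Esrrb stood between Cdx2 and Eomes, followed by Hand1, Ascl2, Tfap2a and Elf5. The Esrrb mean rested on 1 library in each group. It was at 28.7 in CONTROL replicate 2 against 0.927 and 2.31 CPM per kilobase in CONTROL replicates 1 and 3. Across HOXA13 it was at 15.6, 3.67 and 4.89 CPM per kilobase, with a median below that of Eomes (4.89 against 7.94). There the steps from Ascl2 at 6.24 ± 1.53 to Tfap2a at 2.49 ± 1.11 and on to Elf5 at 0.176 ± 0.069 CPM per kilobase were the ones without overlap.

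The genes closest to Cdx2 in pattern over the 6 libraries, by the root mean square difference of centred log2 CPM among tested genes that averaged 5 CPM or more, were Itpk1 (0.18), Syt7 (0.19) and Elovl6 (0.20). Elovl6, a fatty acid elongase, stood at 38.8, 171 and 40.6 CPM across CONTROL against 237, 90.6 and 101 CPM across HOXA13, again with HOXA13 replicate 1 and CONTROL replicate 2 on top. Closest to Eomes were Pard6g (0.11), Marveld1 (0.14) and Tspan9 (0.15). The tetraspanin Tspan9 stood at 337, 144 and 382 CPM across CONTROL against 82.2, 117 and 108 CPM across HOXA13.

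Other genes of the lineage and of neighbouring lineages were read from the same fit through 12 lists of 245 genes, some of them on more than one list. The edgeR test called 0 of the 182 that passed the filter, 47 had an unadjusted p under 0.05 (14.1% of all tested genes did), and groups did not overlap in 46 (20.0% of all). By DESeq2, 10 were called higher and 11 lower in HOXA13 among 185 with an adjusted p (5.07% of all were called), and limma voom called 57 (15.4% of all).

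Among 29 further trophoblast stem and progenitor genes, 25 were tested, 8 lay higher and 3 lower in every HOXA13 library (11.5% and 8.52% of all tested genes did), and the median log2 fold change was 0.51. That median was 0.25 without CONTROL replicate 1, 0.94 without CONTROL replicate 2 and 0.24 without CONTROL replicate 3. Tead4, which encodes the Hippo effector upstream of Cdx2, was at 35.0, 72.4 and 69.7 CPM across CONTROL against 109, 96.4 and 96.6 CPM across HOXA13 (log2 fold change 0.77, SE 0.27, edgeR adjusted p 0.268). Fgfr2, the receptor for the FGF4 signal that trophoblast stem cells need, was at 9.79, 14.2 and 26.4 CPM across CONTROL against 45.6, 63.7 and 63.3 CPM across HOXA13. Its edgeR adjusted p was 0.102 and its DESeq2 adjusted p 0.000464. Ets2, an ETS factor of trophoblast, had an edgeR adjusted p of 0.0759 and a DESeq2 adjusted p of 0.000225 at a log2 fold change of 1.29 (SE 0.24). Bmp4, a signal that can direct cells to trophoblast and mesoderm, was at 157, 149 and 152 CPM across CONTROL against 96.9, 78.2 and 85.6 CPM across HOXA13 (log2 fold change −0.81, SE 0.15, edgeR adjusted p 0.0768). These 4 were singled out after their values were seen. The largest fold changes on the list were those of Nr0b1 (−2.92, SE 1.45), which rested on 48.6 CPM in CONTROL replicate 2 against at most 3.77 CPM elsewhere, and of the epithelial ETS factor Elf3 (2.09, SE 0.77, edgeR adjusted p 0.275), a relative of Elf5. Elf3 was at 4.54, 50.5 and 9.37 CPM across CONTROL against 108, 82.5 and 82.4 CPM across HOXA13.

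Genes of differentiated trophoblast and placenta were uneven in level, with Peg10 between 1313 and 3443 CPM over the 6 libraries. Of 41 listed, 14 had no count in any library, among them the giant cell hormones Prl3d1 and Prl3b1 and the syncytin Synb, and 13 were tested. Of these 13, 4 lay higher in every HOXA13 library and none lower, against 11.5% and 8.52% of all tested genes, with a median log2 fold change of 0.77, or 0.40 without CONTROL replicate 3. Dlx3, a homeobox factor of labyrinth trophoblast and skin, was at 2.34, 5.52 and 5.62 CPM across CONTROL against 14.4, 18.0 and 24.6 CPM across HOXA13, a log2 fold change of 2.08 (SE 0.43) with an edgeR adjusted p of 0.0999 and a DESeq2 adjusted p of 0.000856. The imprinted gene Phlda2 and the retrotransposon-derived Peg10 had log2 fold changes of 1.70 (SE 0.64) and 0.82 (SE 0.26). Plac8 was at 11.6, 0 and 2.62 CPM across CONTROL against 1.08, 0.53 and 0.18 CPM across HOXA13.

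The inputs to Cdx2 through Hippo and Notch had a median log2 fold change of 0.02 over 23 tested genes, with 3 higher and 2 lower in every HOXA13 library, close to the 11.5% and 8.52% of all tested genes. Tead2 was at 119, 70.9 and 105 CPM across CONTROL against 55.3, 46.3 and 47.0 CPM across HOXA13 (log2 fold change −0.99, SE 0.22, edgeR adjusted p 0.112, DESeq2 adjusted p 0.0053), opposite to Tead4. Yap1 had a log2 fold change of 0.02 (SE 0.17). The stress and YAP target Ankrd1 was uneven, with a log2 fold change of −1.41 (SE 1.29). Among 25 family relatives of the 10 genes, 17 were tested, 2 lay higher and 1 lower, again close to those shares, and the median was −0.23. Cdx1, a paralogue of Cdx2, was at 0.99, 35.0 and 6.82 CPM across CONTROL against 17.3, 18.7 and 13.6 CPM across HOXA13, and Gata6 had a log2 fold change of −1.12 (SE 0.57).

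The lists of other lineages that share these regulators differed in direction. For surface ectoderm and neural crest, where the AP-2 factors also act, 8 of 17 tested genes lay higher in every HOXA13 library and 1 lower, where 11.5% of all tested genes lay higher and 8.52% lower, with a median log2 fold change of 0.89, or 0.52 without CONTROL replicate 1, 1.21 without CONTROL replicate 2 and 0.48 by DESeq2. The epithelial factor Grhl1 was at 3.62, 13.0 and 5.02 CPM across CONTROL against 42.7, 54.7 and 71.7 CPM across HOXA13, a log2 fold change of 2.97 (SE 0.49) with an edgeR adjusted p of 0.0619 and a DESeq2 adjusted p of 1.1e-07. Ovol1 had 2.05 (SE 0.46, edgeR adjusted p 0.111). Markers of squamous epithelium and neural crest on this list were uneven in level. Trp63, Krt5 and Sox10 were each at or below 1.08 CPM in every library, while Krt14 lay between 3.30 and 17.8 CPM, Pax3 between 3.30 and 24.2 CPM, Snai2 between 1.84 and 11.3 CPM and Sox9 between 20.3 and 80.7 CPM. For lateral and extraembryonic mesoderm, where Hand1 also acts, 6 of 18 tested genes lay lower and 1 higher, against the same 8.52% and 11.5%. The median was −0.69, and Nkx2-5 (−3.78, SE 0.93) and Wt1 (−2.67, SE 1.22) led. Both were low in level. Nkx2-5 was at 5.74, 1.28 and 4.20 CPM across CONTROL against 0.38, 0.18 and 0.24 CPM across HOXA13, and Wt1 had at most 6.64 CPM. The 1 that lay higher was Tbx20, at 17.0, 14.0 and 24.2 CPM across CONTROL against 57.2, 38.4 and 41.9 CPM across HOXA13. Hand2, the paralogue of Hand1, had a log2 fold change of 0.00 (SE 0.67).

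For the primitive streak and definitive endoderm, where Eomes acts, 20 genes were tested, 2 lay higher and 1 lower, no more than the 11.5% and 8.52% of all tested genes, and the median log2 fold change was 0.08. Lefty1 had 2.58 (SE 1.15) and Otx2 −2.65 (SE 0.84). The caudal epiblast and hindgut list, a region that CDX2 patterns in the embryo, had 4 of 16 tested genes lower in every HOXA13 library and none higher, against 8.52% and 11.5% of all, with a median of −0.42. Hoxb9 was at 141, 27.4 and 78.7 CPM across CONTROL against 19.2, 24.3 and 23.5 CPM across HOXA13 (log2 fold change −1.88, SE 0.51, edgeR adjusted p 0.159, DESeq2 adjusted p 0.0031), and Nkx1-2 had −1.94 (SE 0.70). Over 23 naive pluripotency genes the median was −0.35, with 1 higher and 0 lower in every HOXA13 library. It was 0.97 by voom and 0.57 with the replicate number as a block. Tdgf1 (−3.34, SE 1.65) and Nr0b1 had the largest fold changes. That of Tdgf1 rested on 27.7 CPM in CONTROL replicate 2 against at most 2.07 CPM elsewhere. Of 20 visceral and extraembryonic endoderm genes, 4 had no count in any library: Afp, Ttr, Apoa4 and Apoc2. Apoa1 and Hnf4a reached at most 0.92 and 0.48 CPM, while Apoe lay between 75.3 and 414 CPM. Over the 14 tested the median was −0.72, with 0 higher and 3 lower. That median was −1.19 without HOXA13 replicate 1 and −0.45 without CONTROL replicate 2. Thbd (−1.86, SE 0.91) and Rbp4 (−1.76, SE 1.32) led, and the groups overlapped in both. Sparc (−1.43) and Lama1 (−1.36) lay lower in every HOXA13 library, with DESeq2 adjusted p of 0.000186 and 0.0290. Fibroblast and feeder markers had a median of −1.30 over 27, or −0.82 without CONTROL replicate 1 and −1.75 without CONTROL replicate 2, with 1 higher and 2 lower in every HOXA13 library, a smaller share than over all tested genes. The largest fold changes were those of Acta2 (−4.47, SE 1.79) and Col1a1 (−3.37, SE 1.57), and the groups overlapped in both. Of the sort markers, Cdh1, which encodes E-cadherin, was at 192, 1292 and 702 CPM across CONTROL against 1732, 1690 and 1893 CPM across HOXA13 (log2 fold change 1.28, SE 0.55, edgeR adjusted p 0.351). Cxcr4 was low, at 4.11, 5.04 and 2.25 CPM across CONTROL against 11.3, 5.62 and 4.12 CPM across HOXA13. Its groups overlapped (log2 fold change 0.88, SE 0.56, edgeR adjusted p 0.547). Without CONTROL replicate 2 the median turned to 1.23 for naive pluripotency, 0.63 for the caudal list and −0.09 for the Hippo and Notch inputs, and it was 0.94 for primitive streak and definitive endoderm. Without CONTROL replicate 1 it was −0.44 for primitive streak and definitive endoderm, which was also below 0 without CONTROL replicate 3, HOXA13 replicate 1 or HOXA13 replicate 2. The caudal median was −1.04 without CONTROL replicate 1 or HOXA13 replicate 1 and −0.95 without CONTROL replicate 3. It was −0.82 by DESeq2, −0.81 with no filter and −0.06 by voom.

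**Figure D5:**
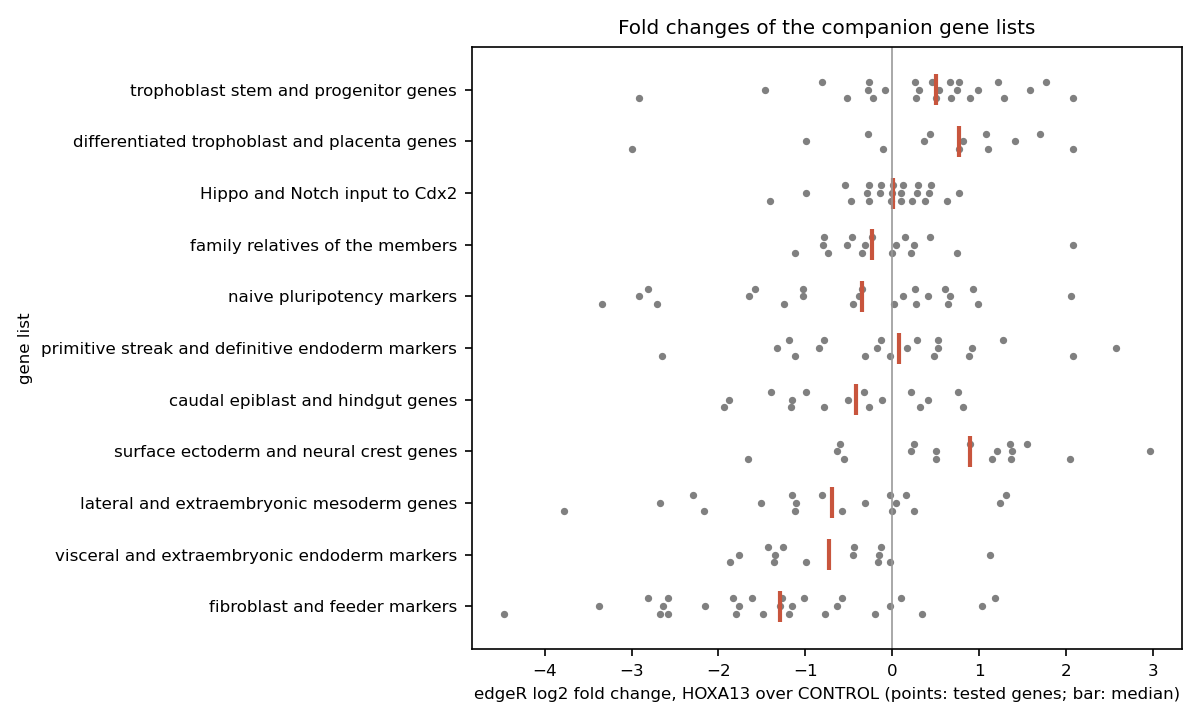
Log2 fold change of HOXA13 over CONTROL by edgeR for each tested gene (grey points, spread vertically for legibility only) of 11 gene lists, with the median as a red bar. Medians run from −1.30 for fibroblast and feeder markers to 0.89 for surface ectoderm and neural crest genes, and no gene shown passed the edgeR threshold.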

How the data were processed

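Each deposited table holds raw counts by gene symbol that the authors made from stranded poly-A libraries (75-base reads, mm9; TopHat2 2.0.14 and HTSeq 0.6.1p1 in the submitters' processing notes, while the study's methods name another TopHat release). Annotation, strand option and multi-mapped reads are not given in the sources used here. The analysis used edgeR 4.0.16 in R 4.3.3 (glmQLFit and glmQLFTest, TMM, filterByExpr with a minimum count of 10 and a minimum total of 15, group only, threshold 0.05). SE was derived from the F statistic. Alternatives were DESeq2 1.42.0, limma 3.58.1 voom, RLE scaling, no filter, a minimum of 50 mean counts, edgeR 4's method, a replicate block and each library left out. CPM used TMM-scaled library sizes, and per-kilobase levels used GENCODE M1 exon unions. No 75-base stretch of the 10 genes' coding transcripts occurred in another gene's. The code was tested on simulated data. No replicate pair agreed within sampling noise (chi-square per degree of freedom at least 15.8). The study's methods describe targeted clones and call the replicates biological, without stating which replicate came from which clone, so p-values measure the spread between these samples.

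The 10 genes and the lists were chosen with earlier results of these data known. The genes named were all 10, from each list every gene past the threshold and the 2 of largest fold change that averaged 1 CPM or more, the sort markers and the transgene rows, and the 3 genes nearest in pattern to Cdx2 and to Eomes; others named were chosen after their values were seen.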

Additional observations from a re-analysis of the deposited data

How the results depend on the processing

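For the 10 genes, edgeR with RLE scaling, a filter on 50 mean counts, no filter or edgeR 4's method called none, DESeq2 called 1 (Eomes, −1.34), limma voom called 3 (Eomes −1.47, Tfap2c 2.01, Hand1 −1.16, edgeR adjusted p 0.267 against 0.0461 by voom), and leaving out CONTROL 2 and HOXA13 1 together called 4 (Cdx2 1.27, Eomes −1.43, Tfap2c 2.14 and Esrrb, which reversed to 1.39). Esrrb also reversed to 1.23 by voom and to 0.85 with the replicate block. Leaving out each library in turn called 0 to 4 of the 10, with log2 fold changes of 0.11 to 1.88 for Cdx2, −1.61 to −1.08 for Eomes, 0.77 to 2.11 for Tfap2c, −1.54 to −0.87 for Hand1, 0.86 to 2.04 for Ascl2, 0.05 to 1.10 for Tfap2a, −0.44 to 0.10 for Gata3, −0.074 to 1.59 for Plet1 and −1.33 to 2.29 for Esrrb. Elf5 was at 0.67 without CONTROL 1 or CONTROL 3, 0.92 without HOXA13 3 and 1.28 without HOXA13 1, was higher without HOXA13 2, and was 4.39 by voom and 3.37 with the replicate block, fits that rest on CONTROL libraries at 0 counts. Gata3 reversed to 0.02 without CONTROL 1 and to 0.10 without HOXA13 1, Plet1 to −0.074 without HOXA13 1 and Esrrb to 2.29 without CONTROL 2. Between 4 and 9 of the 10 had groups without overlap. Over all tested genes the share was 20.0% with all libraries and 49.2% without CONTROL 2. The cause of these changes was not tested.

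Of all tested genes, 42 were called, and 722 by DESeq2, 2101 by voom, 163 with no filter, 9 with the filter on 50 mean counts, 106 by edgeR 4's method, 0 to 2006 with 1 library left out and 2504 without CONTROL 2 and HOXA13 1. Companion genes called were 0, and 21 by DESeq2, 57 by voom, 8 with no filter, 1 by edgeR 4's method, 0 to 61 with 1 library left out and 73 without both libraries. With 1 library left out, list medians ran from 0.24 to 0.94 for trophoblast stem genes, −1.75 to −0.82 for fibroblast markers, 0.40 to 1.11 for differentiated trophoblast, −0.49 to 1.23 for naive pluripotency, −0.44 to 0.94 for streak and endoderm, −1.04 to 0.63 for caudal epiblast, 0.52 to 1.21 for surface ectoderm and −1.19 to −0.45 for visceral endoderm. The surface ectoderm median was 0.48 by DESeq2 and with no filter, where more genes were tested, and 1.26 without both libraries; without both, relatives were at 0.045, mesoderm at −0.99 and visceral endoderm at −1.07, and mesoderm was at −1.13 with the filter on 50 mean counts.

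Replicate numbers gave no sign of pairing the samples: same-numbered libraries had correlations of deviations of −0.21, −0.27 and 0.10. With 3 libraries per group these correlations are not independent, so pairing by number is not excluded. With the number as a block edgeR called 0 genes, 0 of the 10, with Eomes at −1.29 (adjusted p 0.358). Depth limits Elf5, at no more than 24 counts.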
